A study of Mus musculus with 12 samples.

Results

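Serpins are a superfamily of proteins that share one fold, and most of them inhibit serine or cysteine proteases. The rows of the count tables whose symbol begins with Serpin and a clade letter from a to i gave 63 genes of the 23420 listed, and 62 of them are described here, by clade. RNA was sequenced in 12 libraries, 3 each of confluent colonic monolayers at day 3, day 4 and day 5 and 3 of colonic crypts, the reference for each day. Per the labels, all groups came from wild-type mouse colon and the crypts were isolated from a mouse aged 6 to 10 weeks. Cells of these crypts were first grown as monolayers on collagen and then replated on scaffolds with a gradient of cross-linking, where they became contiguous. Electrical resistance across the layer, as labelled, was 526 ± 56 ohm cm2 (error type not named) for day 3 monolayers, 623 ± 15 for day 4 and 407 ± 53 for day 5. The labels do not say whether the 3 libraries of a group came from separate mice or cultures, so the p-values reflect the spread between libraries alone, and that spread may be technical.

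An inhibitory serpin presents a loop that its target protease cleaves, and the serpin then changes shape and traps the protease in a complex that does not release it. Clade A holds mainly secreted proteins made in the liver, among them the relatives of alpha-1 antitrypsin, while clade B serpins mostly stay inside the cell and guard it against proteases of its own lysosomes or of leukocyte granules. Clades C to I are small and hold antithrombin (Serpinc1), protease nexin-1 (Serpine2), C1 inhibitor (Serping1), the collagen chaperone HSP47 (Serpinh1) and neuroserpin (Serpini1). In mouse, clades A and B have expanded into arrays of neighbouring genes.

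Libraries held 4518314 to 14290393 counts in genes, so that 3 counts, taken here as the floor of detection in a library, corresponded to 0.215 to 0.604 CPM (counts relative to library size, scaled by TMM factors). Markers of colonic epithelium such as Epcam, Cdh1 and Krt8 were present in all groups, with a summed level of 11546 to 15397 CPM in monolayers and 10327 to 11629 CPM in crypts. Of the 12863 genes tested, 63.5% passed an edgeR adjusted p under 0.05 for monolayers against crypts, so a call by itself sets no gene apart. All 10 epithelial markers were tested, and 3 rose, 6 fell and 1 was not called, with a median log2 fold change of -0.22. Among all genes tested, 30.7% rose and 32.8% fell.

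Of the 62 serpin genes, 37 had at least 1 count in any library and 25 had none. Counts were found only in monolayers for 16 genes, only in crypts for 5 and in both for 16. Monolayers have more libraries and were read more deeply, with 3 pooled counts at 0.0335 CPM against 0.126 CPM in crypts. A gene with few counts is therefore more likely to have them in monolayers alone, and the same split was not made over all genes. The summed level of these 62 genes was 1082 ± 70.2 CPM in monolayers (SD, n = 9) and 831 ± 60.7 CPM in crypts (n = 3). Clade B held most of it, with 1056 ± 29.4 CPM at day 3, 1154 ± 41.5 at day 4 and 1029 ± 63.9 at day 5, against 822 ± 61.4 CPM in crypts (SD, n = 3 each). The sum ran from 960.1 to 1201 CPM in monolayers and from 762 to 884 CPM in crypts, without overlap. As CPM without TMM factors it ran from 914 to 1141 in monolayers and from 843 to 952 in crypts, and 1 monolayer library, day 5 replicate 2, lay within the crypt range. Clade A was near the floor, with 0.516 ± 0.186 CPM at day 3, 0.134 ± 0.141 at day 4 and 0.235 ± 0.204 at day 5, against 3.42 ± 3.38 CPM in crypts, where the 3 libraries ranged from 0.270 to 7.0 CPM and so overlapped the monolayers.

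**Figure D1:**
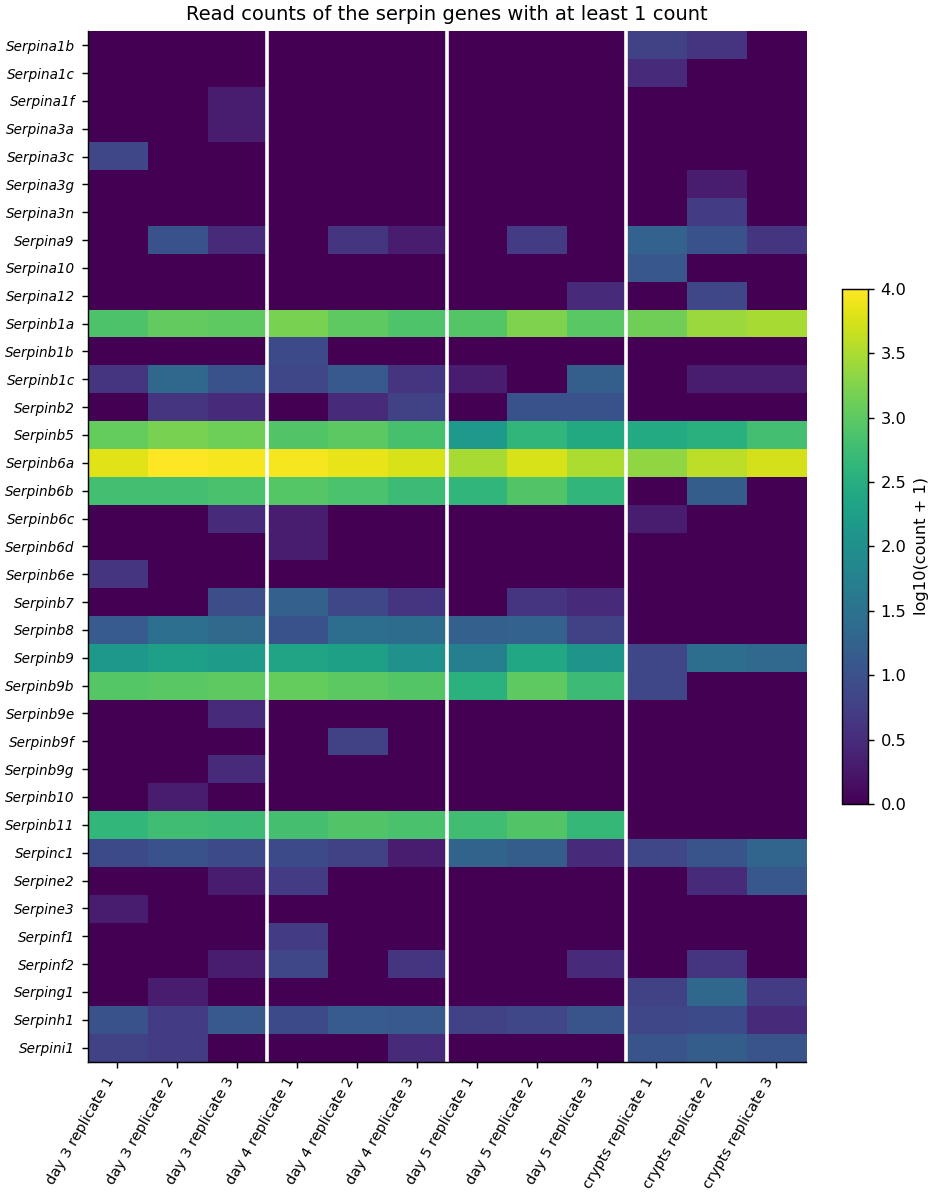
Read counts of the 37 serpin genes with at least 1 count, as log10(count + 1) in colour, for each of the 12 libraries, with genes ordered by clade and libraries by group. The bright rows are a few genes of clade B, and most other rows hold isolated low counts.

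Of these, 12 serpins passed the filter on low counts and were tested, 9 of clade B and 1 each of clades C, H and I. The map of read counts shows how uneven the family is: 7 genes, all of clade B, reached a mean of 5 CPM in at least 1 group, namely Serpinb1a, Serpinb5, Serpinb6a, Serpinb6b, Serpinb9, Serpinb9b and Serpinb11. Between monolayers, as the mean of the 3 days, and crypts, 7 of the 12 tested serpins rose and 2 fell, where 30.7% of all genes tested rose and 32.8% fell. Leaving out any 1 library other than crypts replicates 1 and 2 brought Serpina9 and Serping1 through the filter, and 4 serpins then fell. The median log2 fold change of the 12 was 1.58, with genes at 0 in crypts set to the bound that 3 counts allow or not, and that of all genes tested was -0.03. A gene with hardly any counts in crypts could pass the filter only by being high in monolayers, so this count and median carry no weight as support. In bulk RNA, more cells that express a gene and more RNA per cell cannot be told apart.

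Clade B lies in one run of 12 genes on chromosome 1 and one of 16 on chromosome 13, with no other protein-coding gene between the members in the RefSeq gene order (GRCm38.p6), and 15 of the 16 are in the count tables. In the chromosome 1 run, 5 genes had counts only in monolayers (Serpinb2, Serpinb7, Serpinb8, Serpinb10 and Serpinb11), Serpinb5 had counts in both, and the other 6 had none. In the chromosome 13 run, 6 genes had counts only in monolayers, 7 in both and 2 in neither. Those 6 had 1 to 7 counts each, and the greater depth of the monolayers bears on this split too. The promoter windows of 5 genes of these runs are shown as examples: Serpinb11 and Serpinb8 had no count in crypts, Serpinb6b and Serpinb9b almost none, and Serpinb5, on chromosome 1 with the first pair, was expressed in both. Each is the RefSeq window from 250 bases before to 50 bases after the gene's start, on the gene's strand in GRCm38.p6. Capitals mark matches on either strand to TGANTCA, where N is any base. This is a looser pattern than the site of AP-1 factors, which has C or G at N.
Serpinb11 (chr1:107362064-107362363, + strand): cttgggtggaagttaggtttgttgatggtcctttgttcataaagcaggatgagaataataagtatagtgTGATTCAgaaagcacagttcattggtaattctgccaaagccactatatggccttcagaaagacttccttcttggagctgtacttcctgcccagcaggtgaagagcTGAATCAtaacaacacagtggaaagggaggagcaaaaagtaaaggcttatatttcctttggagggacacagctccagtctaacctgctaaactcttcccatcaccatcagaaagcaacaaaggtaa
Serpinb8 (chr1:107589756-107590055, + strand): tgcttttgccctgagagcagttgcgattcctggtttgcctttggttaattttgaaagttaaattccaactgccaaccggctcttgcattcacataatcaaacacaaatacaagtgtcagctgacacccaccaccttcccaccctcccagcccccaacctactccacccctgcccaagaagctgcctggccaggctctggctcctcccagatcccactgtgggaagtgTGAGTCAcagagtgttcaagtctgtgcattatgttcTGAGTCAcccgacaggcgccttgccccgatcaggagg
Serpinb5 (chr1:106860925-106861224, + strand): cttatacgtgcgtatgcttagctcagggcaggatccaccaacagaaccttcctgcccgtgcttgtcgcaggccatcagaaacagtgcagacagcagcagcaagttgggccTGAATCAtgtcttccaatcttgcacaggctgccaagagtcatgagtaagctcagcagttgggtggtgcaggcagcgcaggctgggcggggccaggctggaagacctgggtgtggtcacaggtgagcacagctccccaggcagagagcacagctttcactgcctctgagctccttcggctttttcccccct
Serpinb6b (chr13:32965011-32965310, + strand): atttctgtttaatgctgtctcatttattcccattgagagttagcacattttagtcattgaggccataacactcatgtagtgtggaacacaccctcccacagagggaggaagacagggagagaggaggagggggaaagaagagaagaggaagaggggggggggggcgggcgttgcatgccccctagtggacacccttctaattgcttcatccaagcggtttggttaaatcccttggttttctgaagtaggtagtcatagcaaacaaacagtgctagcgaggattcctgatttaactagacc
Serpinb9b (chr13:33027164-33027463, + strand): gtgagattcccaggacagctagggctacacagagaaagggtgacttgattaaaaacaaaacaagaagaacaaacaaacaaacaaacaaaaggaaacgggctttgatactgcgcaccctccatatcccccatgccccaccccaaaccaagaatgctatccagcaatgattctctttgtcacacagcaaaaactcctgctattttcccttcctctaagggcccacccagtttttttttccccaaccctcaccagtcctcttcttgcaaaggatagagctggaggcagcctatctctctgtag

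Counted from the start site to the first base of the match, TGANTCA stood at positions -181 and -76 in the window of Serpinb11, at -23 and 14 in that of Serpinb8 and at -140 in that of Serpinb5. Only the Serpinb8 matches, both TGAGTCA, have C or G at N. Those of Serpinb11 read TGATTCA and TGAATCA, and that of Serpinb5 reads TGAATCA. The windows of Serpinb6b and Serpinb9b held no match to TGANTCA. Of all 32851 RefSeq promoter windows, 7.81% held TGANTCA with any base at N, as did 12 of the 61 windows found for serpin genes, which cover 52 of the 62. A further 3 motifs were searched on both strands, none of which overlaps TGANTCA in the windows shown: GGAATG (TEAD factors) was in 14.7% of all windows and 12 of the serpin windows, ACGTG (the core of hypoxia response elements) in 19.6% and 5, and TATAAA (the TATA box) in 13.6% and 18. Of the 5 windows shown, that of Serpinb5 held ACGTG at position -245, and no other of these 3 motifs was found in them. A match describes letters in a window and says nothing about binding.

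**Figure D2:**
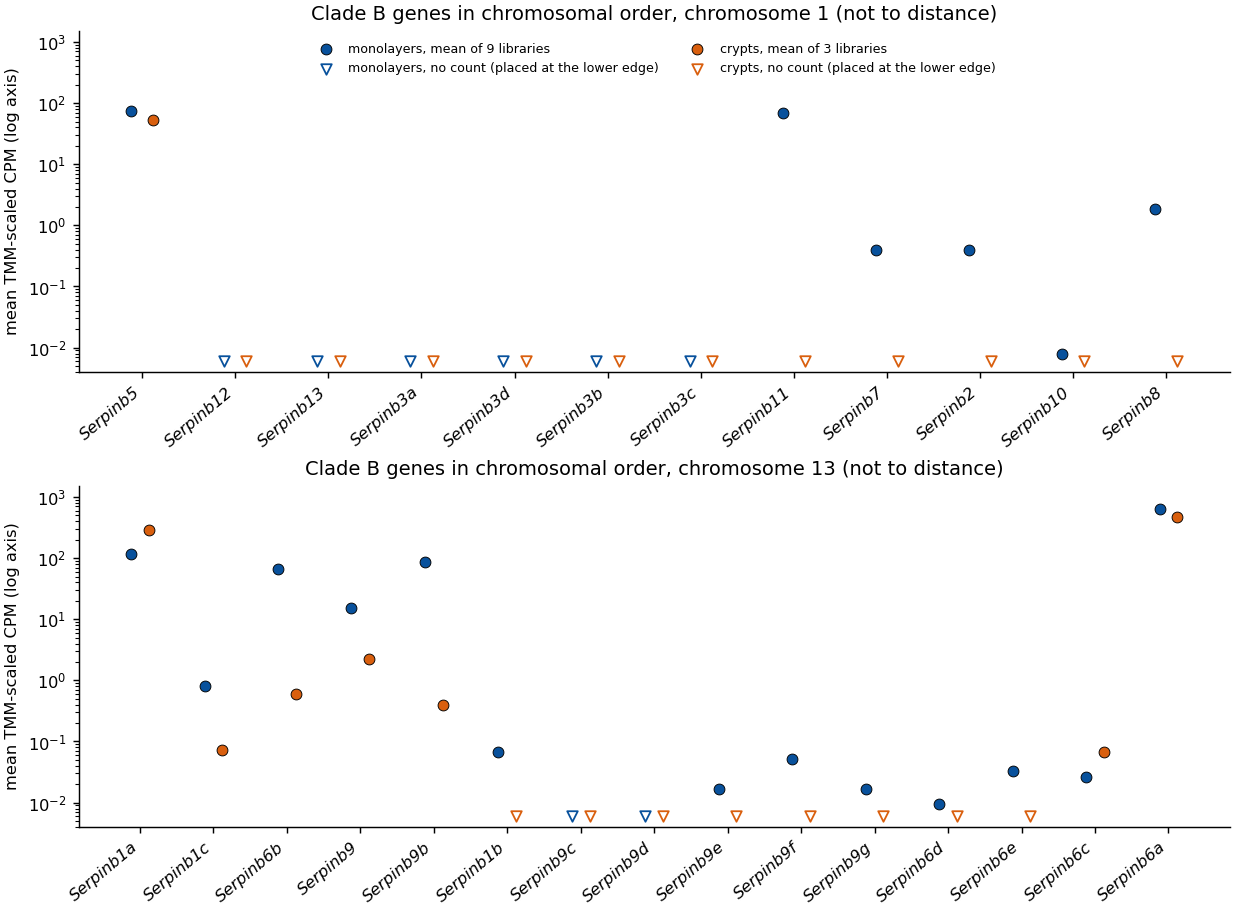
Mean TMM-scaled CPM (log axis) of the clade B serpins in their order along chromosome 1 (top) and chromosome 13 (bottom), in monolayers (blue, left of each pair, n = 9) and crypts (orange, n = 3), with open triangles at the lower edge for genes with no count. On chromosome 1 the genes drawn from Serpinb11 to Serpinb8 have points only for monolayers, and on chromosome 13 Serpinb6b, Serpinb9 and Serpinb9b have crypt means far below their monolayer means.

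Serpinb9, Serpinb9b and Serpinb6b, whose proteins are known as inhibitors of granzymes, the granule proteases of cytotoxic lymphocytes, rose in monolayers. Serpinb9, an intracellular inhibitor of granzyme B, stood at 13.5, 13 and 12 CPM in the day 3 libraries, 18.3, 17.5 and 12.6 CPM at day 4 and 10.7, 21.7 and 20.4 CPM at day 5, against 1.2, 3.52 and 1.98 CPM in crypts. All monolayer libraries lay above all crypt libraries, and the days overlapped each other. The change was 2.74 ± 0.32 on the log2 scale (SE, edgeR adjusted p = 4.91e-07).

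Its neighbour Serpinb9b, reported in mouse as an inhibitor of granzyme M, stood at 89.1, 68.3 and 76.7 CPM at day 3, 96.4, 91.1 and 103 CPM at day 4 and 71.1, 91.6 and 96.3 CPM at day 5, against 1.2, 0 and 0 CPM in crypts. The crypt value rests on 6 counts, all in replicate 1, while the monolayers held 7734 counts. The change was 8.33 ± 0.37 (edgeR adjusted p = 6.95e-13) and became 12.74 without crypts replicate 1, when no crypt count remained, and 7.47 without crypts replicate 3. The ratio of pooled CPM, monolayers over crypts, was 342 with an exact 95% interval of 157 to 932, which like every such interval here covers counting error only.

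Serpinb6b, reported in mouse to inhibit granzyme A, stood at 62.7, 45.3 and 52.9 CPM at day 3, 74.7, 69.0 and 67.8 CPM at day 4 and 85.8, 73.4 and 74.5 CPM at day 5, against 0, 1.82 and 0 CPM in crypts. All 14 crypt counts were in replicate 2. Groups did not overlap, and the change was 6.77 ± 0.40 (edgeR adjusted p = 3.54e-11), or 12.32 without crypts replicate 2 and 5.92 without crypts replicate 3. The pooled ratio was 109.9 (exact 95% interval 65.4 to 201).

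The granule proteases themselves were low, with a summed level of 0.866 to 3.11 CPM in monolayers and 5.68 to 18.9 CPM in crypts. Of the 14 genes in the list of leukocyte granule serine proteases, 3 were tested, of which none rose. Among all genes tested, 30.7% rose and 32.8% fell. Gzma (granzyme A) fell, with 0 counts in monolayers against 90 in crypts (3.76 CPM). Gzmm (granzyme M), with 71 counts in monolayers against 23 in crypts, was not called (-0.60 ± 0.66, edgeR adjusted p = 0.447). Elane, Ctsg and Prtn3, the neutrophil proteases, had no count in any library, and Gzmb had 2 counts in monolayers against 67 in crypts. Leukocyte markers were mixed: of the 11 in the files 7 were tested, 3 rose and 4 fell, their sum was 27.7 to 69.8 CPM in monolayers and 18.4 to 59.9 CPM in crypts, and S100a8 and S100a9 had none in crypts. Ptprc, the marker shared by leukocytes, was at 0.232 CPM in monolayers and 16.9 CPM in crypts. Cd68, Csf1r and S100a8, markers of myeloid cells, went the other way, with 31.3, 2.27 and 10.5 CPM in monolayers against 1.35, 0.287 and 0 CPM in crypts. The part of leukocytes in the values of the 3 serpins was not tested.

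Mouse Serpinb11 is known to inhibit trypsin-like proteases in vitro. It stood at 44.9, 41.7 and 41.7 CPM at day 3, 57.9, 75.8 and 85.0 CPM at day 4 and 118, 73.5 and 78.6 CPM at day 5, and had no count in the 3 crypt libraries. With 5628 counts in monolayers against 0 in crypts, it was at least 497.5-fold higher, taking 3 counts over all crypts as the floor (edgeR adjusted p = 1.46e-12). It shared no stretch of 50 bases of its transcripts with another gene in the annotation.

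Its neighbours on chromosome 1 were low. Serpinb8, whose human counterpart inhibits furin, had 1.30, 2.01 and 1.74 CPM at day 3, 0.775, 2.52 and 3.03 CPM at day 4 and 3.22, 1.52 and 0.866 CPM at day 5, and no count in crypts, which makes it at least 14.4-fold higher in monolayers (edgeR adjusted p = 0.000206). Serpinb2, the intracellular plasminogen activator inhibitor PAI-2, had 30 counts in monolayers and 0 in crypts, and Serpinb7 (megsin) had 38 in monolayers and 0 in crypts, which put them at least 2.65-fold and 3.36-fold higher in monolayers by counting alone. Neither passed the filter for a test. Serpinb10 had a single count, at day 3.

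**Figure D3:**
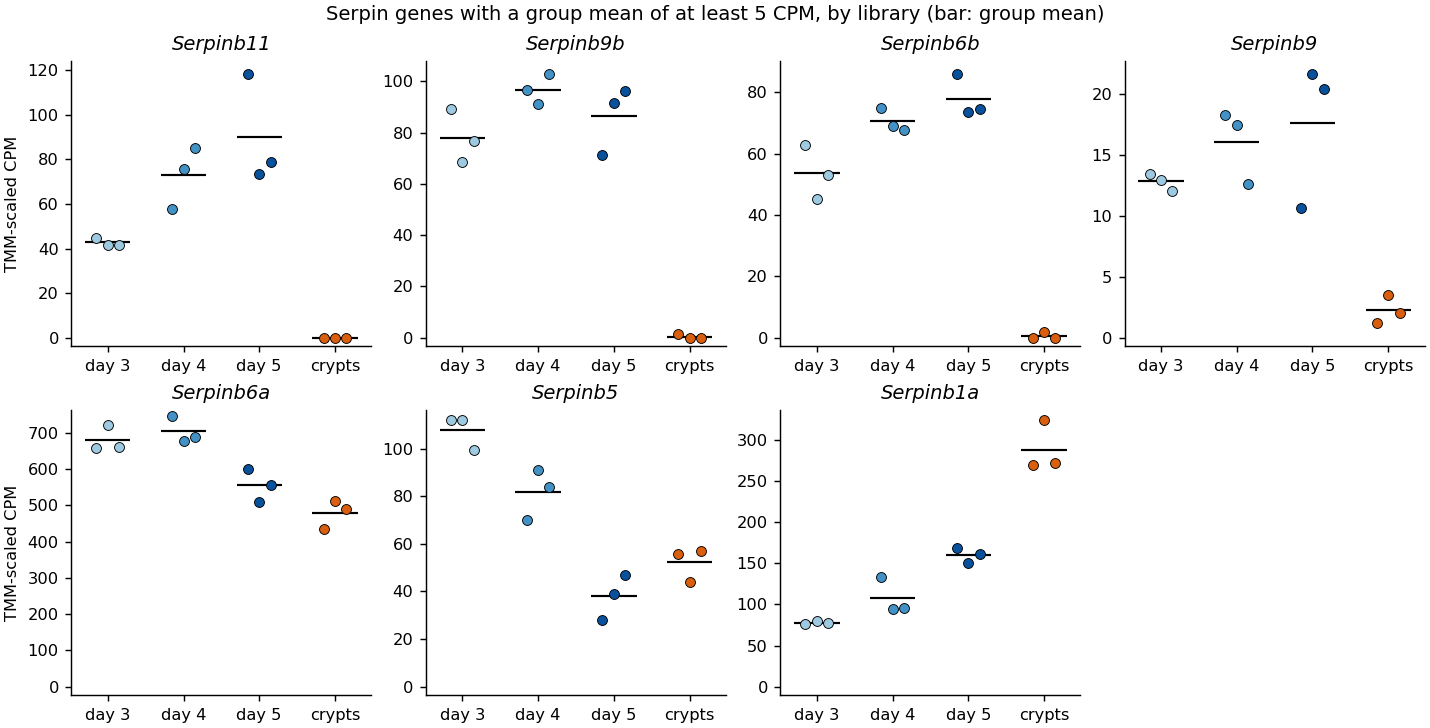
TMM-scaled CPM of the 7 serpin genes with a group mean of at least 5 CPM, 1 panel a gene, with 1 point a library at day 3, day 4, day 5 and in crypts, and a bar at each group mean (n = 3). The crypt points lie at or near 0 for Serpinb11, Serpinb9b and Serpinb6b, above all monolayer points for Serpinb1a, and within the monolayer range for Serpinb5.

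The clade B genes that crypts also expressed moved by less. Serpinb6a, the mouse counterpart of human SERPINB6, an inhibitor of cathepsin G and trypsin-like proteases, had 657, 721 and 662 CPM at day 3, 747, 677 and 688 CPM at day 4 and 601, 508 and 556 CPM at day 5, against 434, 511 and 489.7 CPM in crypts. The day 3 and day 4 libraries lay above all crypt libraries, while day 5 overlapped them. The change was 0.42 ± 0.07 (edgeR adjusted p = 5.71e-05) over the 3 days, and 0.21 ± 0.09 at day 5 (edgeR adjusted p = 0.0473), a call lost in 14 of 19 alternatives and 0.01 with library totals in place of TMM factors. Of its 50-base stretches 25.1% also occur in other genes, most often Nqo2, and how far this affects its counts is not known.

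Serpinb1a fell in monolayers. It is one of the mouse counterparts of human SERPINB1, which inhibits neutrophil elastase and cathepsin G. It stood at 76.3, 79.4 and 77.2 CPM at day 3, 133, 94.9 and 96.0 CPM at day 4 and 168, 150.4 and 162 CPM at day 5, against 269, 324 and 271 CPM in crypts. All monolayer libraries lay below all crypt libraries, and the 3 days did not overlap each other. The change was -1.39 ± 0.09 (edgeR adjusted p = 1.70e-10), with -1.89 at day 3, -1.41 at day 4 and -0.85 at day 5. Its paralog Serpinb1c, with 70 counts in monolayers against 2 in crypts, was not called (3.07 ± 1.34, edgeR adjusted p = 0.0531), with a pooled ratio of 9.28 (exact 95% interval 2.48 to 78.2), and was called with DESeq2 (adjusted p = 0.0415), without day 5 replicate 1 (0.0436) or without day 5 replicate 2 (0.0243). Without day 5 replicate 3 the change was 1.95 (edgeR adjusted p = 0.233), and over its 18 alternatives the adjusted p ran from 0.0243 to 0.233.

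Serpinb5 (maspin) has the serpin fold but is not known to inhibit a protease, and is a gene of epithelial cells. It had 112, 112 and 99.3 CPM at day 3, 70.1, 90.9 and 83.8 CPM at day 4 and 28.0, 38.8 and 46.9 CPM at day 5, against 55.8, 44.1 and 56.8 CPM in crypts. It was higher than crypts at day 3 and day 4 without overlap, and lower at day 5 with overlap. The changes were 1.04 ± 0.15 at day 3 (edgeR adjusted p = 1.33e-05), 0.64 ± 0.16 at day 4 (0.00174) and -0.46 ± 0.16 at day 5 (0.0219). The day 5 call was lost without day 5 replicate 1 (-0.29, edgeR adjusted p = 0.109), without crypts replicate 1 (-0.41, 0.0573) or replicate 3 (-0.38, 0.0811), and with only those groups in the fit (-0.46, 0.0717). The mean over the 3 days, 0.41 ± 0.13 (edgeR adjusted p = 0.0109), therefore averages changes of opposite sign, and its call was lost with library totals (0.23, 0.178) and without crypts replicate 2 (0.30, 0.0704).

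Per kilobase of exon (GENCODE vM21, exons of all transcripts joined), Serpinb6a had the highest mean level in monolayers, with 119 ± 14.3 CPM per kb (SD, n = 9), followed by Serpinb1a with 50.1 ± 16.5. In crypts Serpinb1a, at 125 ± 13.4 CPM per kb (n = 3), was above Serpinb6a, at 88.4 ± 7.34. Per kilobase, Serpinb6a exceeded Serpinb1a in 9 of 9 monolayer libraries, by 1.44 to 3.86 times, and in 0 of 3 crypt libraries, where the ratio was 0.672 to 0.768. In CPM not divided by length, Serpinb6a was the higher in crypts as well, at 434 to 511 against 269 to 324 CPM. The crypt order thus rests on the joined exon lengths, 5409 bases for Serpinb6a and 2303 for Serpinb1a. Next in monolayers came Serpinb11 (31.4 ± 11.5 CPM per kb), Serpinb6b (29.8 ± 5.42), Serpinb5 (27.5 ± 11.5) and Serpinb9b (26.0 ± 3.61), and then Serpinb9 (4.44 ± 1.15). These SDs span the 3 days and include the differences between them. At day 3 Serpinb5 was above Serpinb11 (39.2 ± 2.65 against 19.6 ± 0.850 CPM per kb, n = 3), and at day 5 below it (13.8 ± 3.45 against 41.2 ± 11.2). In crypts the third gene was Serpinb5 at 19.0 ± 2.55 CPM per kb, and the others stood at 0.639 or below. These levels depend on the exon lengths of the annotation, which may not be the one the authors counted with.

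The genes of the plasminogen and coagulation axis include proteases that serpins inhibit and the receptors and cofactors of these proteases. Of 18 genes 12 were tested, of which 10 rose, 1 fell and 1 was not called, with a median of 3.26, where 30.7% of all genes tested rose and 32.8% fell. Procr, Plat, Plau and F2r, with 0, 8, 12 and 17 counts in crypts, could pass the filter only by being high in monolayers. F2, F7, F10 and Thbd, with more counts in crypts than in monolayers, were not tested, nor were Plg and Vtn. Such a count and median therefore carry no weight as support, as for the serpins, and the same holds for the other gene lists. Among the 10 that rose, only Plat and Plau are proteases, and the others (Plaur, Plgrkt, Anxa2, S100a10, F3, F2r, F2rl1 and Procr) are receptors, cofactors or binding proteins. Tissue plasminogen activator (Plat) averaged 184 ± 41.8 CPM in monolayers and 0.254 ± 0.333 CPM in crypts (9.01 ± 0.23, edgeR adjusted p = 3.15e-16). Tissue factor (F3), which starts coagulation, averaged 1070.6 ± 93.9 CPM in monolayers and 20.5 ± 5.12 CPM in crypts (5.73 ± 0.13, edgeR adjusted p = 5.19e-17). The protein C receptor Procr had no count in crypts and was at least 58.8-fold higher in monolayers. Urokinase (Plau) was at 9.36 CPM in monolayers and 0.567 CPM in crypts and its receptor Plaur at 81.4 CPM in monolayers and 3.89 CPM in crypts, while plasminogen itself (Plg) had 13 counts in monolayers and none in crypts. Plau and Plaur, named after their values were seen, rose by 4.12 and 4.44 (edgeR adjusted p = 4.73e-06 and 3.83e-13).

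The smaller clades gave few counts. Serpini1 (neuroserpin), an inhibitor of tissue plasminogen activator known from neurons, fell: it had 0.499, 0.287 and 0 CPM at day 3, 0, 0 and 0.242 CPM at day 4 and 0, 0 and 0 CPM at day 5, against 2.0, 1.82 and 0.901 CPM in crypts. With 11 counts in monolayers against 34 in crypts, its pooled level was 11.7 times lower in monolayers (exact 95% interval 5.77 to 25.5, edgeR adjusted p = 0.000871). The fitted change of -4.57 ± 1.01 became -5.45 without day 4 replicate 3, and the pooled level was 19.0 times lower without day 3 replicate 1. This fitted change averages in day 5, where Serpini1 had no count, so its size depends on the fit's prior count. Of 8 neuronal and glial markers 3 were tested, 0 rose and 1 (Uchl1) fell, where 30.7% of all genes tested rose and 32.8% fell. The 8 markers summed to 2.90 to 6.81 CPM in monolayers and 2.73 to 4.60 CPM in crypts. Of these markers Sox10 had no count in either group, Elavl4 none in monolayers, and Tubb3, S100b and Gfap none in crypts.

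Serpinc1 (antithrombin), with 70 counts in monolayers and 35 in crypts, was not called (-0.89 ± 0.64, edgeR adjusted p = 0.237), and 33.6% of its 50-base stretches also occur in other genes, mainly Zbtb37. Serpinh1 (HSP47), which assists the folding of collagens, had 78 counts in monolayers and 15 in crypts and was not called (0.36 ± 0.74, edgeR adjusted p = 0.687), with a sign that turned without crypts replicate 3 (-0.17). A difference was not detectable for these genes at this depth. The list of collagen chains and collagen maturation genes around Serpinh1 held 19 tested genes, of which 9 rose, 5 fell and 5 were not called, with a median of 0.63, where 30.7% of all genes tested rose and 32.8% fell. Among them the basement membrane chains Col4a2 and Col4a1 averaged 421 ± 56.5 and 426 ± 41.5 CPM in monolayers, against 1.59 ± 0.881 and 1.88 ± 2.67 CPM in crypts (8.01 ± 0.18 and 7.88 ± 0.36, edgeR adjusted p = 4.52e-17 and 7.35e-13). Col18a1 averaged 86.2 ± 8.85 CPM in monolayers and 1.12 ± 0.978 CPM in crypts (6.55 ± 0.32, edgeR adjusted p = 2.84e-12).

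Serping1 (C1 inhibitor, which blocks the first complement proteases) had 1 count in monolayers against 30 in crypts, of which 5, 21 and 4 were in replicates 1 to 3. Its pooled level was 113 times lower in monolayers (exact 95% interval 18.8 to 4615), or 50.1 times without crypts replicate 2 and 184 times without crypts replicate 3, and without day 3 replicate 2 no monolayer count was left. Serpine2 (protease nexin-1) had 5 counts in monolayers against 13 in crypts, a pooled level 9.80 times lower in monolayers (3.28 to 35.1). Of the crypt counts 11 were in replicate 3, without which the pooled level was 2.83 times lower, and 4 of the monolayer counts were in day 4 replicate 1, without which it was 42.7 times lower. Serpinf2 (alpha-2 antiplasmin) had 12 counts in monolayers and 3 in crypts, a ratio of 1.06 (0.286 to 5.86) that became 0.609 without day 4 replicate 1 and 0.566 without crypts replicate 3, all crypt counts being in replicate 2. Serpinf1 (4 counts) and Serpine3 (1 count) were found only in monolayers.

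Clade A gave few counts as well. Of its 25 genes, 15 had no count and none was tested. Serpina9, known from germinal centre B cells, had the most counts, 19 in monolayers against 29 in crypts, a pooled level 5.76 times lower in monolayers (exact 95% interval 3.12 to 10.9). The crypt counts were 17, 9 and 3, and crypts replicate 3 (0.270 CPM) lay within the monolayer range of 0 to 0.645 CPM. Without crypts replicate 1 the pooled level was 3.02 times lower, without crypts replicate 3 it was 9.68 times lower, and without day 3 replicate 2 it was 9.23 times lower. Serpina10, an inhibitor of coagulation factor Xa, had 0 counts in monolayers and 11 in crypts, all in replicate 1. Serpina1b and Serpina3n had no count in monolayers, against 8 and 4 in crypts. Serpina12 had 2 counts in monolayers against 6 in crypts, Serpina3c had 6 in monolayers against 0 in crypts, and the others with a count had 1 or 2. Counts of Serpina1a to Serpina1e are uncertain, since 29.5 to 79.3% of their 50-base stretches occur in another gene, mostly in each other.

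Several genes listed as markers of cells outside the epithelium fell in monolayers. Among all genes tested, 30.7% rose and 32.8% fell, and few genes of each list were tested. Of the 11 fibroblast and smooth muscle markers 5 were tested, 0 rose and 4 fell, with a sum of 1.80 to 5.44 CPM in monolayers and 17.1 to 84.4 CPM in crypts; Dcn and Lum had no count in monolayers and Acta2 none in crypts. Of the 6 endothelial markers 2 were tested and 1 fell (0.538 to 4.02 CPM in monolayers, 3.51 to 6.77 CPM in crypts), and Cdh5 and Emcn had no count in crypts. Of the 7 liver and plasma protein genes 2 were tested and both fell (0 to 0.605 CPM in monolayers, 18.5 to 57.0 CPM in crypts), with Fgb, Fga, Trf and Hp at 0 in monolayers and Fgb and Fga at 0 in crypts. Of the 7 mast cell markers only Kit was tested, and it fell (sum 0 to 0.604 CPM in monolayers, 94.9 to 142 CPM in crypts). Cpa3 and Fcer1a were at 0 in both groups, Mcpt2 at 0 in monolayers and Mcpt4 and Tpsb2 at 0 in crypts. Mcpt1 and Mcpt2 averaged 0.814 and 0.608 CPM in crypts, so the crypt sum was nearly all Kit and says little of mast cells. The part of cells outside the epithelium in the lower values of Serping1, Serpine2, Serpini1, Serpinb1a and clade A in monolayers was not tested.

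No count in any of the 12 libraries was found for 25 serpins. They were, in clade A, Serpina1a, Serpina1d, Serpina1e, Serpina3b, Serpina3f, Serpina3h, Serpina3i, Serpina3j, Serpina3k, Serpina3m, Serpina4-ps1, Serpina5, Serpina6, Serpina7 and Serpina11, and in clade B, Serpinb3a, Serpinb3b, Serpinb3c, Serpinb3d, Serpinb9c, Serpinb9d, Serpinb12 and Serpinb13. The single clade D gene Serpind1 (heparin cofactor II) and the clade I gene Serpini2 complete them. A count of 0 allows, at 3 counts over a group, up to 0.0335 CPM in monolayers and 0.126 CPM in crypts, by counting error only. Reads without a unique alignment were not counted, which can hide members with near-identical copies. In all, 25 serpins shared at least 10% of their 50-base stretches with another gene, among them Serpinb9f (78.7%), Serpinb9g (54.8%) and Serpinb9d (30.8%).

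**Figure D4:**
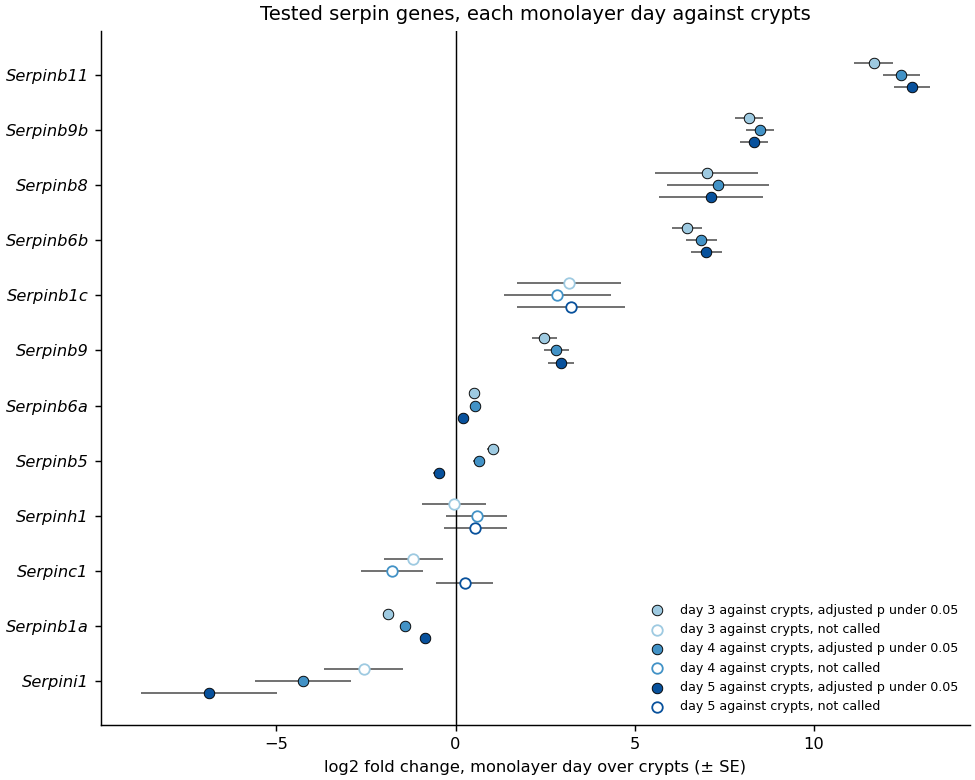
Log2 fold change (± SE) of the 12 tested serpin genes at day 3, day 4 and day 5, each over crypts, with filled points for an edgeR adjusted p under 0.05 and open points for genes not called. Serpinb11 and Serpinb8 had no crypt count, so their positions depend on the fit's prior count. The day 5 position of Serpini1, which had no day 5 count, depends on it too. Serpinb5 is to the right of 0 at day 3 and day 4 and to the left at day 5.

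By day, 7 serpins rose and 1 fell at day 3 (28.4% of all genes tested rose and 27.9% fell), 7 rose and 2 fell at day 4 (28.7% and 28.4%), and 6 rose and 3 fell at day 5 (28.4% and 28.9%). The plot of changes over crypts shows that the same 6 genes rose at each day: Serpinb6a, Serpinb6b, Serpinb8, Serpinb9, Serpinb9b and Serpinb11. Of these calls, that of Serpinb6a at day 5 was lost in the 14 of 19 alternatives given above, and with only the groups compared in the fit Serpinb8 passed the filter at day 3 and was not tested at day 4 or day 5. Serpinb5 rose at day 3 and day 4 and fell at day 5, Serpinb1a fell at each day, and Serpini1 fell at day 4 and day 5. The day 4 call of Serpini1 was lost without day 4 replicate 1 (-3.65, edgeR adjusted p = 0.0686) or replicate 2 (-3.69, 0.0661), and at day 3 it was not called (-2.56, 0.0593) but was with library totals (-2.72, 0.0461) and with only those groups in the fit (-2.56, 0.0283). The 3 comparisons share their crypt libraries.

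Between days, clade B genes moved in both directions. At day 4 against day 3, 2 serpins rose and 0 fell by edgeR, as by DESeq2, where 1.59% and 1.17% of all genes tested rose and fell, and 3 of the 12 had an unadjusted p under 0.05. Serpinb11 rose by 0.77 ± 0.18 (edgeR adjusted p = 0.0272) and Serpinb1a by 0.48 ± 0.12 (0.0377), each without overlap between day 4 and day 3. The call of Serpinb11 was lost without any 1 of the day 3 libraries or day 4 replicate 2 or 3 (0.64 to 0.80, edgeR adjusted p = 0.0932 to 0.138). That of Serpinb1a was lost without any 1 of the day 3 libraries, day 4 replicate 1 or day 5 replicate 2 or 3 (0.30 to 0.49, edgeR adjusted p = 0.0506 to 0.306).

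**Figure D5:**
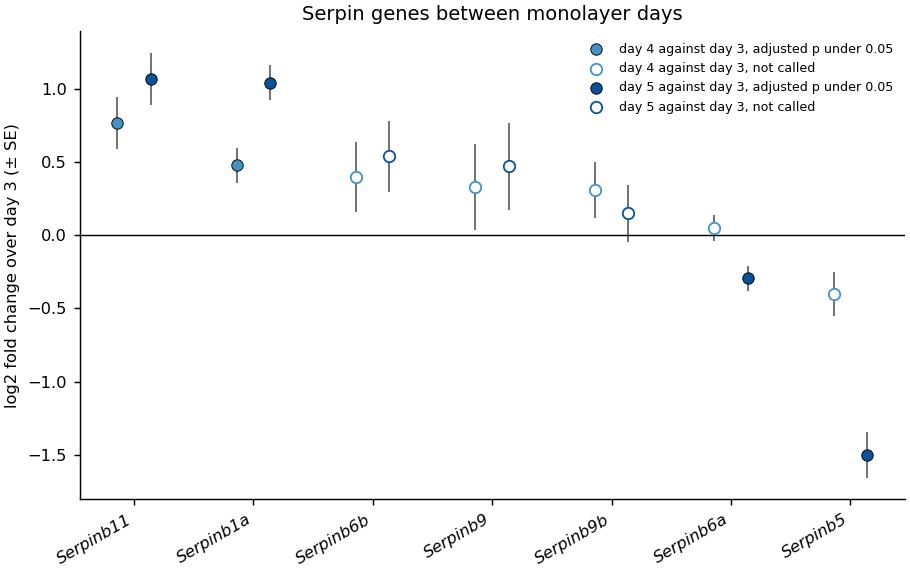
Log2 fold change (± SE) over day 3 of the 7 serpins with a group mean of at least 5 CPM, at day 4 (light blue) and day 5 (dark blue), with filled points for an edgeR adjusted p under 0.05. Serpinb11 and Serpinb1a lie above 0 on both days, and Serpinb5 has the lowest value, -1.5 at day 5.

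At day 5 against day 4, 1 serpin rose and 2 fell, where 3.36% and 4.20% of all genes tested did. Serpinb1a rose by 0.56 ± 0.12 (edgeR adjusted p = 0.00582), while Serpinb5 fell by 1.10 ± 0.16 (0.000206) and Serpinb6a by 0.34 ± 0.09 (0.0201). For each of these genes the day 5 libraries did not overlap the day 4 libraries. The call of Serpinb1a was lost without day 4 replicate 2 (0.48, edgeR adjusted p = 0.0518). That of Serpinb6a was lost without day 4 replicate 1 or 3 or day 5 replicate 2 (-0.36 to -0.29, edgeR adjusted p = 0.0544 to 0.114).

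At day 5 against day 3, 2 serpins rose and 2 fell, where 9.90% and 10.5% of all genes tested did. Serpinb11 rose by 1.07 ± 0.18 (edgeR adjusted p = 0.000409) and Serpinb1a by 1.04 ± 0.12 (5.39e-06), while Serpinb5 fell by 1.5 ± 0.16 (2.03e-06) and Serpinb6a by 0.29 ± 0.09 (0.0227). None of the 4 genes overlapped between day 5 and day 3. The calls of Serpinb11, Serpinb1a and Serpinb5 held without any 1 library. That of Serpinb6a was lost without day 3 replicate 2 (-0.25, edgeR adjusted p = 0.112) or day 5 replicate 2 (-0.24, 0.121). As the plot of changes over day 3 shows, Serpinb6b, Serpinb9 and Serpinb9b were not called between day 4 or day 5 and day 3, nor were they between day 5 and day 4. With only the groups compared in the fit, Serpinb6b was called at day 4 (0.40, edgeR adjusted p = 0.0242) and day 5 (0.54, 0.00609) against day 3, and at day 4 against day 3 so were Serpinb9b (0.31, 0.0488) and Serpinb5 (-0.41, 0.00864). Serpinb6b at day 5 against day 3 was also called with no filter (0.53, edgeR adjusted p = 0.00385) and without crypts replicate 2 (0.54, 0.0053) or replicate 3 (0.54, 0.0421), against 0.131 with all libraries. The labels give the resistance once for a group, highest at day 4 and lowest at day 5, and its relation to these genes was not tested.

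Among other proteases, genes moved in both directions. Of 17 tested membrane and secreted serine proteases 6 rose (35.3%), 8 fell (47.1%) and 3 were not called, with a median of -0.29, where 30.7% of all genes tested rose and 32.8% fell. Klk1, a tissue kallikrein, averaged 0.501 ± 0.698 CPM in monolayers and 1161 ± 188 CPM in crypts (-11.72 ± 0.23, edgeR adjusted p = 1.14e-17), and Prss30 averaged 1.86 ± 1.29 CPM in monolayers and 145 ± 19.6 CPM in crypts (-6.48 ± 0.20, edgeR adjusted p = 3.41e-15). Prss22 had 767 counts in monolayers against 1 in crypts, a pooled ratio of 203 (exact 95% interval 36.4 to 8045). Of 23 tested cathepsins and caspases 5 rose (21.7%), 10 fell (43.5%) and 8 were not called, with a median of -0.39. Ctsl rose by 2.59 ± 0.11 (edgeR adjusted p = 2.60e-13), while Ctss fell by 3.00 ± 0.13 (4.02e-13) and Ctse fell by 2.88 ± 0.26 (2.13e-08).

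Of 16 tested inhibitors outside the serpin family 6 rose (37.5%), 8 fell (50%) and 2 were not called, with a median of -0.49, beside the same 30.7% and 32.8% of all genes. Timp2, an inhibitor of matrix metalloproteases, averaged 196 ± 24.7 CPM in monolayers and 11.2 ± 2.60 CPM in crypts (4.08 ± 0.13, edgeR adjusted p = 5.46e-15). Spink4, a Kazal-type inhibitor of goblet cells, averaged 2.75 ± 1.68 CPM in monolayers and 911 ± 260.5 CPM in crypts (-8.56 ± 0.21, edgeR adjusted p = 1.48e-16). Spink3 had 3 counts in monolayers against 1705 in crypts, a pooled level 2143 times lower in monolayers (exact 95% interval 732 to 10402).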

How the data were processed

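The values are whole-number read counts per gene, deposited by the authors as 1 unnormalized table a library. The submitters' processing notes name CASAVA 1.9, TopHat2, HTSeq and, with no role, the builds mm9 and mm10. Annotation and strand setting are not given in the sources used, so overlapping or antisense genes cannot be told apart. Besides 23420 genes, each table has 5 summary lines, which were left out. Reads in no gene made up 38.7 to 49.0% and reads without a unique alignment 14.2 to 19.2%.

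Libraries were grouped by their labels. Serpin members and the gene lists were chosen with earlier results of these data known. A serpin gene and a pair of marker genes are not reported here. Genes described in every library had a mean of at least 5 CPM in 1 group, and up to 3 called genes a list are named beside them, those with the largest change at a mean of at least 5 CPM. Other genes of these lists were chosen for naming after their values were seen.

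The test was edgeR 4.0.16 (R 4.3.3), as 1 quasi-likelihood fit over the 4 groups, so tests between days also use the spread of the crypts. The filter filterByExpr (minimum count 10) kept 12863 genes. TMM factors ranged from 0.91 to 1.12, and genes were called at a Benjamini-Hochberg adjusted p under 0.05 over the whole table. Levels are TMM-scaled CPM. A fold against a group without counts is a bound from 3 counts over that group, and ratios of pooled CPM carry exact 95% binomial intervals. Both cover counting error only. All pairs of libraries within a group differed beyond sampling noise (chi-square per degree of freedom 5.40 to 26.5). Exon lengths and transcripts for shared 50-base stretches came from GENCODE vM21, gene order and promoters from RefSeq (GRCm38.p6). Coordinates are given for promoter windows only, since the build of the counts is not settled.

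Alternatives were RLE size factors, library totals, no filter, at least 1 CPM in 3 libraries, a replicate block, DESeq2 1.42.0, only the groups compared, and leaving out each library in turn.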

Additional observations from a re-analysis of the deposited data

Results flagged for a closer look

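A total of 4 serpins differed between monolayer days in the edgeR test of one day against another, which means that their changes over crypts differed by day. At day 4 against day 3, 1.59% of all genes tested rose and 1.17% fell. The shares were 3.36% and 4.20% at day 5 against day 4, and 9.90% and 10.5% at day 5 against day 3. Serpinb11 was higher by 0.77 at day 4 against day 3 (log2 fold change, edgeR adjusted p = 0.0272) and by 1.07 at day 5 against day 3 (0.000409). Serpinb1a was higher by 0.48 at day 4 against day 3 (edgeR adjusted p = 0.0377), by 0.56 at day 5 against day 4 (0.00582) and by 1.04 at day 5 against day 3 (5.39e-06). Serpinb5 changed by -1.10 at day 5 against day 4 (edgeR adjusted p = 0.000206) and by -1.5 at day 5 against day 3 (2.03e-06). Serpinb6a changed by -0.34 at day 5 against day 4 (edgeR adjusted p = 0.0201) and by -0.29 at day 5 against day 3 (0.0227). As given above, the calls of Serpinb11 and Serpinb1a at day 4 against day 3 were lost without any 1 of several libraries. So were the calls of Serpinb6a, and that of Serpinb1a at day 5 against day 4 was lost without day 4 replicate 2.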

How the results depend on the processing

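Over the 12 tested serpins in monolayers against crypts, the serpins called in each other comparison and the clade B sum, 846 results under an alternative kept their direction and side of the threshold, 40 lost the call and 3, all of Serpinb1c, gained it. Of the 846, 13 are of the clade B sum, which has no threshold and was judged by its distance from the main ratio. Gains in the other comparisons could not enter these counts. Serpinb1c was called at day 3 without day 5 replicate 2 (3.16, edgeR adjusted p = 0.0477) or replicate 3 (3.17, 0.047), and at day 5 without day 5 replicate 2 (3.91, 0.0258). The other gains, of Serpini1, Serpinb5, Serpinb6b and Serpinb9b, are given above. The clade B sum moved with library totals, to a log2 ratio of 0.21 in place of 0.39, and 1 result reversed, namely Serpinh1, which ranged from -0.17 without crypts replicate 3 to 0.82 without crypts replicate 1. Library totals moved the median of all genes to -0.21 against -0.03 with TMM factors. For monolayers against crypts, the count of serpins that fell was 8 with no filter, the 6 more being Serpina10, Serpina1b, Serpina3n, Serpina9, Serpine2 and Serping1, which then were tested. In that setting 9090 of 18195 genes were called in either direction. The 11 crypt counts of Serpina10 were all in replicate 1 and the 4 of Serpina3n all in replicate 2. For Serpine2, 11 of the 13 crypt counts were in replicate 3. Without the filter 3 fell at day 3 and 4 at day 4, and with library totals 2 fell at day 3. With only the groups compared in the fit, 2 fell at day 3, 1 at day 4 and 1 at day 5, and at day 4 against day 3 a total of 4 rose and 1 fell. In these fits Serpinb8 and Serpini1 did not pass the filter at day 4 or day 5 against crypts. The filter of at least 1 CPM in 3 libraries kept the same 12863 genes, so its results repeat the main fit and were fixed in advance, though the 846 include them.

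Leaving out each library in turn gave 6 to 8 serpins that rose and 2 to 4 that fell in monolayers, 7 to 8 and 1 to 2 at day 3, 7 and 2 to 4 at day 4, and 5 to 7 and 2 to 5 at day 5. It gave 0 to 2 that rose and 0 that fell at day 4 against day 3, 0 to 1 and 1 to 2 at day 5 against day 4, and 2 to 3 and 1 to 2 at day 5 against day 3. Where a group was left with 2 libraries, the spread was shared with the other groups.

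Replicate numbers are shared between groups, but same-numbered libraries did not deviate together (correlation -0.03 to 0.06 over 18 pairs, and 6 of 12 libraries correlated best with their own number). With the numbers as a replicate block, 1 serpin rose at day 4 against day 3 in place of 2 (Serpinb1a had 0.47, edgeR adjusted p = 0.0557), and other counts of called serpins stayed within 1.5 times. Depth limits what can be said of the 25 serpins with at most 48 counts that were not tested.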
